A study of Mus musculus with 8 samples.

Results

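The genes described here are 44 genes of the G1/S transition and of DNA replication, listed by symbol for their roles in DNA synthesis and found under those symbols in a table of 23356 genes. All 44 were found and all 44 passed a filter of 1 FPKM or more in any group, as did 11397 genes in all. FPKM is the number of sequenced fragments scaled by transcript length and library size, so it is a level per length and can be set side by side between genes. Levels ranged from 3.56 to 180 FPKM as the mean of the 4 groups, and 36 of the 44 genes were at 10 FPKM or more in control WT cells.

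RNA-seq was performed on bone marrow-derived dendritic cells (BMDCs), which grow from mouse marrow over 6 days in GM-CSF and IL-4. Marrow came from WT mice and from mice lacking *Arhgef2*, the gene of GEF-H1 (Arhgef2-/-, here GEF-H1-/-), both on a C57BL/6 background (C57BL/6N in the methods), sex-matched and 8 to 16 weeks old. GEF-H1 is a guanine nucleotide exchange factor for RhoA that is held inactive on microtubules and released when they disassemble. The 4 groups were WT and GEF-H1-/- BMDCs that were left untreated (control) or exposed for 5 h to 100 nM ansamitocin-P3, a maytansinoid that destabilizes microtubules, with 2 libraries per group. The study asked which transcriptional responses to microtubule loss need GEF-H1. The labels do not say whether the libraries of a group came from separate animals or cultures, and the deposited values pool them, so there is 1 value per gene and group.

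Because the values are pooled, no difference below was tested against the spread between libraries. Each FPKM is given with the 95% interval that Cuffdiff attaches to it. This interval is a modelled error of the estimate and is not read here as a replicate error. How far it takes in the spread between libraries is not given in the sources used here. A change is the log2 ratio of FPKM + 1, which understates the change of genes at low FPKM, and its interval combines the intervals of the groups compared. The columns of the WT groups carry no genotype and were assigned by elimination. The targeted gene ran with the assigned genotypes, since *Arhgef2* (chr3:88616207-88648052, mm10) had a level of 42.3 FPKM (34.5 to 50.0) without and 45.9 FPKM (36.9 to 54.9) with the drug in WT BMDCs, and of 4.59 (3.54 to 5.63) and 4.16 (3.22 to 5.11) in GEF-H1-/- BMDCs. All 11 markers of dendritic cells passed the filter, with a summed level of 4797 to 7160 FPKM over the groups, and the neutrophil markers found (6 of 7) summed to 21759 to 38267 FPKM. Most of the dendritic sum came from genes of MHC class II presentation. With the drug in WT BMDCs, 6 of the dendritic markers were higher and 5 lower.

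A cell that is to divide copies its DNA once per cycle. In G1, the origin recognition complex, CDC6 and CDT1 load the MCM2-7 helicase onto chromatin, and cyclin D and cyclin E kinases then release E2F transcription factors from the retinoblastoma proteins, after which E2F raises the mRNAs of the replication machinery. In S phase, CDC45 and GINS turn MCM2-7 into a moving helicase, polymerases α, δ and ε copy the strands, and PCNA, its loader RFC, FEN1 and LIG1 finish the lagging strand while ribonucleotide reductase supplies nucleotides. BMDC cultures hold progenitors that still divide beside differentiated cells. In bulk RNA, fewer dividing cells and less of these mRNAs per dividing cell cannot be told apart.

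Sequences around a RefSeq transcription start (GRCm38.p6) were available for 36 of the 44 genes, as 43 promoters of 250 bases before to 50 bases after the start. They were searched on both strands for the E2F words TTTCCCGC, TTTGGCGC, TTTCGCGC and TTTGCCGC. A word was present for 14 of 36 genes (38.9%), beside 704 of all 27025 genes with a promoter (2.60%). Counted by promoter, the share was 32.6% beside 2.26% of all promoters. The genes were listed as replication genes of the E2F type. A share above that of all genes therefore follows from the choice of list and is not a result about them. CCAAT, the letters bound by NF-Y, was present for 22 of the 36 genes (61.1%) beside 41.1% of all genes. The promoters of the 4 MCM2-7 genes with E2F words are printed because the MCM2-7 genes were lower together after the drug. *Mcm2*, with the largest change of the ring in WT BMDCs (-0.75), held no such word in this window and is not printed. *Cdc6* is printed because it had the largest change among the licensing genes, and *Ung* because it had the largest change of all 44 and holds no such word in this window. No promoter in the table was matched for *Mcm4*, *Gins1*, *Gins2*, *Pole*, *Prim2*, *Rfc2*, *Ccne2* and *Ccnd1*. Capitals mark the E2F words on either strand, and each sequence is read 5′ to 3′ on the strand of the gene.
Mcm3, chr1:20820263-20820562, minus strand: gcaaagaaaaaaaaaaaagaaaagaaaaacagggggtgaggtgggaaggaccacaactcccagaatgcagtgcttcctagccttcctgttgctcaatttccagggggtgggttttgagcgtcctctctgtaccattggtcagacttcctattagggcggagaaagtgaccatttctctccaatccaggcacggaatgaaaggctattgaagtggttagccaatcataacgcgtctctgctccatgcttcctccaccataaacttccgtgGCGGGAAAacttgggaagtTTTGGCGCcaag
Mcm5, chr8:75109259-75109558, plus strand: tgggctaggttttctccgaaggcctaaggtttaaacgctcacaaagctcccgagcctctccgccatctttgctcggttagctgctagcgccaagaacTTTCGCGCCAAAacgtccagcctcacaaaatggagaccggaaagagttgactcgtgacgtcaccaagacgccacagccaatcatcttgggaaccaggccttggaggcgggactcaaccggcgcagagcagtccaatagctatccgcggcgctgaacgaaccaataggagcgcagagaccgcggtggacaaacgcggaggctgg
Mcm6, chr1:128359656-128359955, minus strand: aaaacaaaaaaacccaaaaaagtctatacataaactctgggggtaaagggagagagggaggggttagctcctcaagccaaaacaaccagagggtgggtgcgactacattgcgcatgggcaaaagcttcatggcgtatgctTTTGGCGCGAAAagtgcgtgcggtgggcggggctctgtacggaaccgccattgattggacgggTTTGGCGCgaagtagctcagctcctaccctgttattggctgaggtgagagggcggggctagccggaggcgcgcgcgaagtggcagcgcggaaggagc
Mcm7, chr5:138171834-138172133, minus strand: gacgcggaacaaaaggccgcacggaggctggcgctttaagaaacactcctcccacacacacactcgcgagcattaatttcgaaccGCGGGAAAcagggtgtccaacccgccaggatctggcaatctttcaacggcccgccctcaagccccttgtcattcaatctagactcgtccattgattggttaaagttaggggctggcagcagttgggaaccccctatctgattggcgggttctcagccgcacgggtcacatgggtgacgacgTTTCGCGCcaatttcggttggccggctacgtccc
Cdc6, chr11:98907901-98908200, plus strand: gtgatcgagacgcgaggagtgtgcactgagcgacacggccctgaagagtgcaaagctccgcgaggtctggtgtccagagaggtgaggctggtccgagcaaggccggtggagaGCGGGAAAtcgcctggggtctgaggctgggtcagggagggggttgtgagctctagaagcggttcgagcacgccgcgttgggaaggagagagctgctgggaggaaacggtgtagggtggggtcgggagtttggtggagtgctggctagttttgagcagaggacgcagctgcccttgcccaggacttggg
Ung, chr5:114130185-114130484, plus strand: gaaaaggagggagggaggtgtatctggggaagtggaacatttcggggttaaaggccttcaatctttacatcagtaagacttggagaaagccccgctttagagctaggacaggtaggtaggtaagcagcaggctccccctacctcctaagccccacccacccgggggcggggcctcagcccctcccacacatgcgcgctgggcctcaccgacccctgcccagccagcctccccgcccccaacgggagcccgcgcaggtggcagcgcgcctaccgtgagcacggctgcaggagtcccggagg
*Mcm6* held 3 words, of which 2 overlap, and the words of *Mcm5* overlap as well, so that the capitals run together. In *Mcm7* the words begin at positions -165 and 16, counting the start as 0, and a further promoter of *Mcm7* in the table holds none. Among the other genes, *Rfc3* held 2 words and *Cdt1*, *E2f2*, *Gins3*, *Lig1*, *Orc1*, *Pola1*, *Pold1* and *Uhrf1* 1 each. The RefSeq start used for *Cdc6* lies downstream of the start of its locus in the deposited table, and its window lies wholly inside that locus. The windows of *E2f1* and *Dut*, which hold no E2F word, also lie wholly inside their loci. For these genes the bases before the locus were not searched. A match is a match of letters, and binding of E2F was not measured.

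Ansamitocin-P3 treatment of WT BMDCs was accompanied by lower levels of almost the whole group. Of the 44 genes, 43 were lower in treated than in control WT BMDCs (background over all 11397 genes, 49.6%), with a median log2 change of -0.49 and a range of -2.19 to 0.04, while the median of all genes was 0.00. The change was 1.5-fold or more for 18 genes, all lower (background 8.04%). For 15 genes the control and treated intervals lay apart, again all lower (background 7.58%): *Cdc6*, *Mcm2* to *Mcm7*, *Pold1*, *Rpa1*, *Ung*, *Chaf1b*, *Dut*, *E2f1*, *Ccne1* and *Ccnd1*. Most of these changes were modest, and only *Ung* and *Ccnd1* passed a log2 change of -1 (background 1.28%). The summed level of the 44 genes was 1272 FPKM in control and 911 in treated WT BMDCs, or 71.6% of control.

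In GEF-H1-/- BMDCs all 44 genes were lower after treatment (background 52.3%), but by less, with a median log2 change of -0.20 and a range of -0.72 to -0.01 beside a median of -0.01 over all genes. None passed -1 (background 0.272%). Only *Ung* and *Ccne1* were 1.5-fold or more lower (background 1.20%), and these were also the only genes whose intervals lay apart (background 0.956%). The summed level was 1199 FPKM in control and 1025 in treated GEF-H1-/- BMDCs, or 85.5% of control. The interval of the change, whose half-width had a median of 0.41, lay wholly below 0 for 3 genes in GEF-H1-/- BMDCs (background 3.21%) and for 23 in WT BMDCs (background 14.5%).

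**Figure D1:**
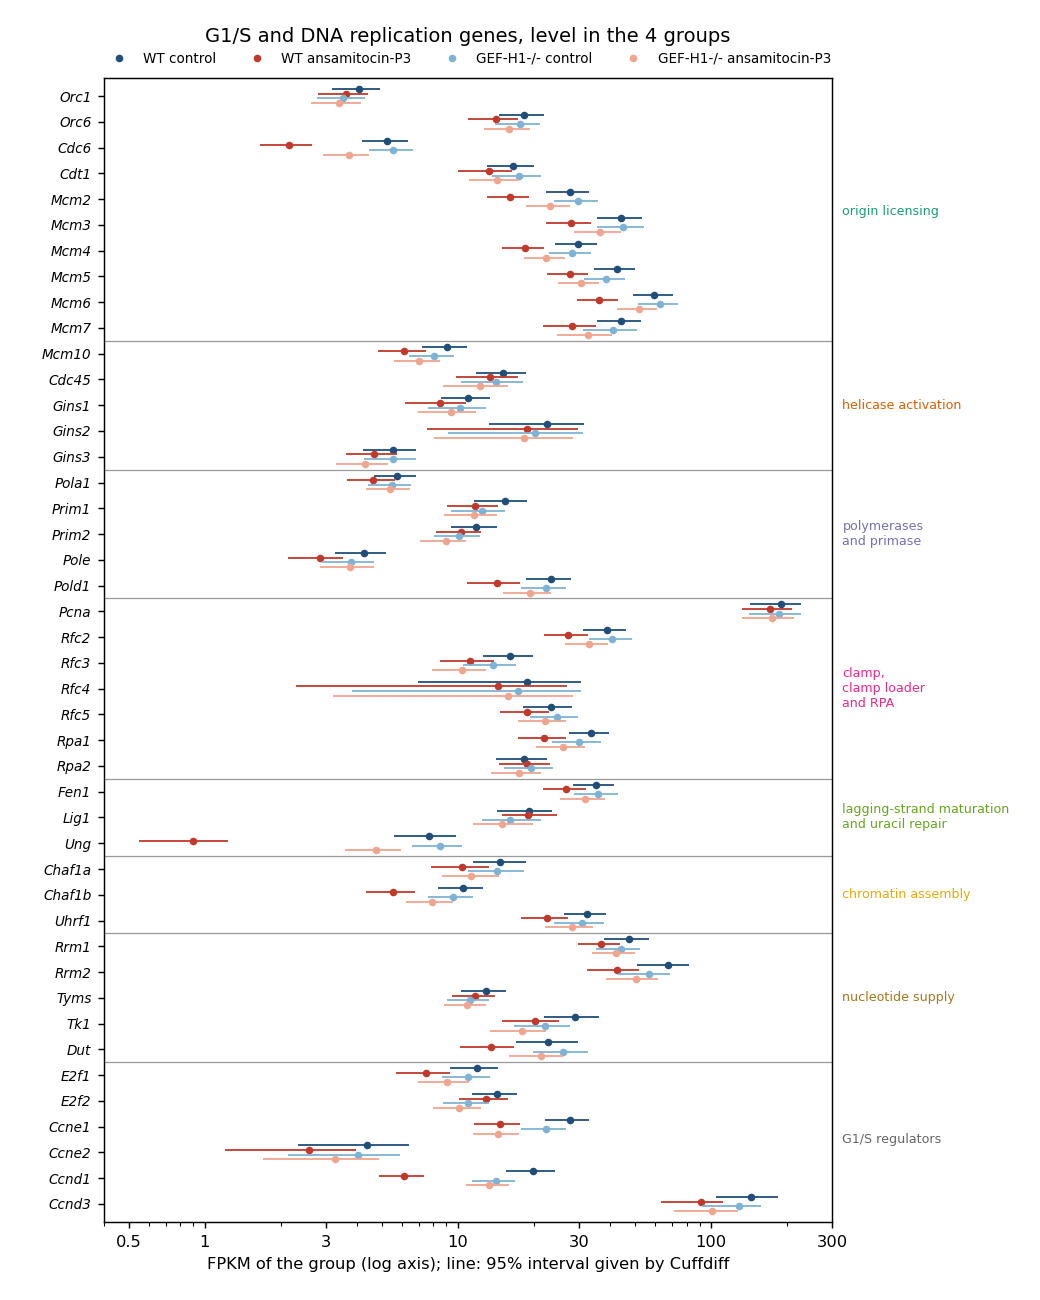
FPKM of the 44 genes (log axis) in the 4 groups, ordered by role, with points for the pooled group value and lines for the 95% interval given by Cuffdiff. Treated WT BMDCs (dark red) lie left of the other groups for most genes, with *Ung* at 0.895 FPKM the farthest, while *Pcna* and *Rpa2* nearly coincide across groups.

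The 10 origin licensing genes were lower together. All 10 were lower in treated WT BMDCs (median -0.64), 7 of them with intervals apart, and their summed level was 64.2% of control, against 81.1% in GEF-H1-/- BMDCs (median -0.30). *Mcm6*, a subunit of the helicase ring and the most abundant gene of this group, was at 59.7 FPKM (48.9 to 70.5) in control WT and 36.1 (29.5 to 42.7) in treated WT BMDCs, and at 62.6 (51.2 to 74.0) and 51.8 (42.3 to 61.1) in GEF-H1-/- BMDCs. Treated WT BMDCs had the lowest value, with an interval apart from both controls and just overlapping that of treated GEF-H1-/- BMDCs. *Mcm3* was at 44.2 (35.3 to 53.1) and 27.9 (22.2 to 33.5) FPKM in WT and at 44.7 (35.4 to 54.1) and 36.4 (28.6 to 44.1) in GEF-H1-/- BMDCs. *Mcm7* was at 44.1 (35.3 to 52.9) and 28.3 (21.7 to 35.0) FPKM in WT and at 40.8 (31.2 to 51.1) and 32.5 (24.7 to 40.6) in GEF-H1-/- BMDCs. The 6 subunits of the MCM2-7 ring were close to each other in change, from -0.75 to -0.60 in WT BMDCs, each with intervals apart, and from -0.35 to -0.27 in GEF-H1-/- BMDCs, where no intervals lay apart. The difference between the genotypes was 0.28 to 0.44 for these subunits, and none of the intervals of that difference excluded 0.

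*Cdc6*, the ATPase that loads the ring, had the largest change of the group. It was at 5.26 FPKM (4.18 to 6.34) in control WT and 2.15 (1.66 to 2.65) in treated WT BMDCs, a level 40.9% of control, and at 5.56 (4.45 to 6.65) and 3.70 (2.94 to 4.47) in GEF-H1-/- BMDCs, or 66.7%. The intervals of treated cells lay apart between the genotypes, and the log2 changes were -0.99 (-1.33 to -0.65) and -0.48 (-0.82 to -0.14). The other loading factors changed less. *Cdt1* was at 16.5 and 13.2 FPKM in WT and at 17.4 and 14.3 in GEF-H1-/- BMDCs. *Orc1* and *Orc6*, subunits of the origin recognition complex, changed by -0.14 and -0.34 in WT and by -0.05 and -0.12 in GEF-H1-/- BMDCs. Each of these *Orc1* and *Orc6* changes had an interval that included 0.

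The genes that activate the helicase had the smallest median change of the 8 role groups in WT BMDCs. All 5 were lower in both genotypes, with medians of -0.24 in WT and -0.17 in GEF-H1-/- BMDCs, and no intervals lay apart. *Gins2*, a subunit of GINS, was at 22.4 FPKM (13.2 to 31.5) and 18.7 (7.55 to 29.9) in WT and at 20.2 (9.15 to 31.3) and 18.2 (8.07 to 28.4) in GEF-H1-/- BMDCs. Its locus in the table overlaps *Gse1*, and its intervals were among the widest. *Cdc45* was at 15.1 (11.8 to 18.5) and 13.4 (9.84 to 17.2) FPKM in WT and at 14.1 (10.3 to 18.0) and 12.2 (8.73 to 15.7) in GEF-H1-/- BMDCs. *Gins1* was at 11.0 (8.55 to 13.4) and 8.47 (6.19 to 10.8) FPKM in WT and at 10.2 (7.62 to 12.9) and 9.36 (6.93 to 11.8) in GEF-H1-/- BMDCs. For all 3 genes the control and treated intervals overlapped in each genotype. *Mcm10*, which helps to start the helicase, had the largest change of the group in WT BMDCs (-0.49, against -0.17 in GEF-H1-/- BMDCs), and *Gins3* was one of 4 genes whose change was larger in GEF-H1-/- BMDCs (-0.31 against -0.20).

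Among polymerases and primase, *Pold1*, the catalytic subunit of polymerase δ, stood out. It was at 23.3 FPKM (18.6 to 27.9) in control WT and 14.3 (10.9 to 17.6) in treated WT BMDCs, and at 22.3 (17.7 to 26.7) and 19.2 (15.1 to 23.3) in GEF-H1-/- BMDCs. Its control and treated intervals lay apart in WT and overlapped in GEF-H1-/- BMDCs. *Prim1*, the catalytic primase subunit, was at 15.3 (11.6 to 18.8) and 11.7 (9.02 to 14.4) FPKM in WT and at 12.4 (9.36 to 15.3) and 11.6 (8.84 to 14.3) in GEF-H1-/- BMDCs. *Prim2*, the other primase subunit, was at 11.8 (9.42 to 14.2) and 10.3 (8.21 to 12.3) FPKM in WT and at 10.1 (8.05 to 12.2) and 8.94 (7.11 to 10.8) in GEF-H1-/- BMDCs. Neither primase subunit had intervals apart. *Pole*, which encodes the catalytic subunit of polymerase ε, was at 4.24 and 2.84 FPKM in WT and at 3.77 and 3.74 in GEF-H1-/- BMDCs, and *Pola1* had log2 changes of -0.26 and -0.02. The medians of the 5 genes were -0.36 in WT and -0.08 in GEF-H1-/- BMDCs.

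*Pcna*, the sliding clamp of the polymerases, was the most abundant of the 44 genes and one of the least changed. It was at 189 FPKM (142 to 227) and 171 (132 to 209) in WT and at 186 (141 to 226) and 174 (132 to 212) in GEF-H1-/- BMDCs, so that all 4 intervals overlapped. *Rfc2*, a subunit of the clamp loader, was at 38.7 (31.2 to 46.2) and 27.3 (21.8 to 32.7) FPKM in WT and at 40.7 (32.9 to 48.5) and 32.9 (26.5 to 39.3) in GEF-H1-/- BMDCs. *Rpa1*, the large subunit of the protein that coats single-stranded DNA, was at 33.4 (27.4 to 39.5) and 21.9 (17.2 to 26.6) FPKM in WT, where the intervals lay apart, and at 30.1 (23.6 to 36.6) and 26.0 (20.3 to 31.6) in GEF-H1-/- BMDCs. Its partner *Rpa2* did not share this change, with 18.2 and 18.8 FPKM in WT and 19.5 and 17.4 in GEF-H1-/- BMDCs, and was the only gene of the 44 that was higher in treated WT BMDCs, by 0.04 (-0.39 to 0.48). *Rfc3*, *Rfc4* and *Rfc5* changed by -0.48, -0.35 and -0.29 in WT and by -0.37, -0.12 and -0.14 in GEF-H1-/- BMDCs. The locus of *Rfc4* overlaps *Eif4a2*, and its interval in treated WT BMDCs ran from 2.30 to 26.9 FPKM around a value of 14.4.

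The largest change of all was that of *Ung* (chr5:114130435-114139321), the uracil-DNA glycosylase that removes uracil from newly copied DNA. It was at 7.66 FPKM (5.61 to 9.78) in control WT and 0.895 (0.549 to 1.24) in treated WT BMDCs, or 11.7% of control. In GEF-H1-/- BMDCs it was at 8.51 (6.61 to 10.4) and 4.76 (3.59 to 5.93) FPKM, or 56.0% of control. The control groups overlapped, both treated groups lay below their controls, and treated WT BMDCs lay far below treated GEF-H1-/- BMDCs, which were 5.32-fold higher. The log2 changes were -2.19 (-2.63 to -1.76) in WT and -0.72 (-1.13 to -0.31) in GEF-H1-/- BMDCs, and their difference was 1.47 (0.87 to 2.07). Because the level in treated WT BMDCs was under 1 FPKM, the value depends on the added FPKM, and with 5 FPKM added the change in WT BMDCs was -1.10 and the difference 0.63. Its neighbours in this role changed little by comparison. *Fen1*, the flap endonuclease, was at 35.0 (28.5 to 41.4) and 26.8 (21.6 to 32.0) FPKM in WT and at 35.8 (28.6 to 43.0) and 31.7 (25.3 to 38.1) in GEF-H1-/- BMDCs. *Lig1*, the ligase that seals Okazaki fragments, was at 19.0 (14.3 to 23.5) and 18.9 (14.9 to 24.7) FPKM in WT and at 16.1 (12.4 to 21.3) and 14.9 (11.5 to 19.7) in GEF-H1-/- BMDCs. Neither had intervals apart in either genotype. The loci of *Fen1* and *Lig1* overlap *Tmem258* and *Zswim9*.

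**Figure D2:**
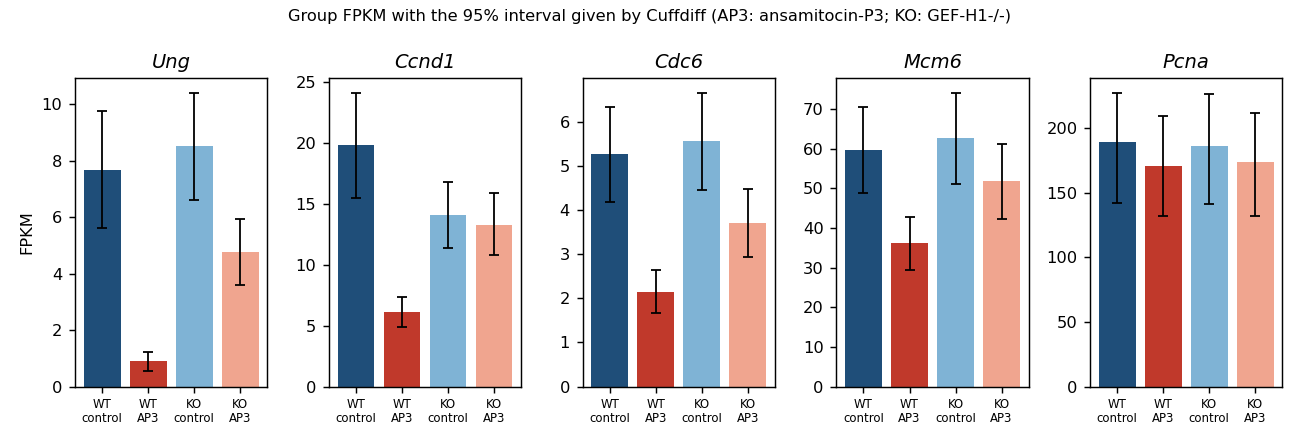
Group FPKM (linear axes from 0, a different scale for each gene) of *Ung*, *Ccnd1*, *Cdc6*, *Mcm6* and *Pcna*, with bars for the pooled value and error bars for the 95% interval given by Cuffdiff. The treated WT bar is lowest for each gene, from 0.895 FPKM in *Ung* to 171 FPKM in *Pcna*, where it is inside the interval of the control.

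Genes that place nucleosomes and maintain DNA methylation behind the fork were lower as a group in WT BMDCs, with a median of -0.50 against -0.24 in GEF-H1-/- BMDCs. *Uhrf1*, which brings the maintenance DNA methyltransferase to hemimethylated DNA, was at 32.3 FPKM (26.3 to 38.3) and 22.5 (17.7 to 27.3) in WT and at 30.9 (24.0 to 37.8) and 28.1 (22.0 to 34.2) in GEF-H1-/- BMDCs. *Chaf1a*, the large subunit of chromatin assembly factor 1, was at 14.6 (11.5 to 18.5) and 10.4 (7.85 to 13.2) FPKM in WT and at 14.3 (11.0 to 18.3) and 11.3 (8.65 to 14.5) in GEF-H1-/- BMDCs. *Chaf1b*, another subunit of this factor, was at 10.5 (8.34 to 12.6) and 5.55 (4.33 to 6.79) FPKM in WT and at 9.53 (7.60 to 11.5) and 7.91 (6.25 to 9.56) in GEF-H1-/- BMDCs. Of these genes only *Chaf1b* had control and treated intervals apart, in WT BMDCs, and its change differed between the genotypes by 0.57 (0.03 to 1.10).

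For nucleotide supply, the subunits of ribonucleotide reductase were the most abundant genes. *Rrm2*, the regulatory subunit made in S phase, was at 67.3 FPKM (50.9 to 81.8) and 42.3 (32.3 to 51.7) in WT and at 56.7 (42.7 to 68.9) and 50.7 (38.3 to 61.8) in GEF-H1-/- BMDCs. *Rrm1*, the catalytic subunit, was at 47.4 (37.9 to 56.8) and 36.7 (29.8 to 43.5) FPKM in WT and at 43.9 (35.2 to 52.2) and 41.9 (33.8 to 50.0) in GEF-H1-/- BMDCs. *Tk1*, the thymidine kinase of the salvage pathway, was at 28.9 (21.9 to 35.9) and 20.1 (14.9 to 25.1) FPKM in WT and at 22.1 (16.6 to 27.6) and 17.9 (13.4 to 22.3) in GEF-H1-/- BMDCs. The control and treated intervals of these 3 genes overlapped in both genotypes. The locus of *Tk1* overlaps *Afmid* and *Gm20708*. *Dut*, the enzyme that keeps dUTP out of the nucleotide pool, was at 22.7 and 13.5 FPKM in WT, with intervals apart, and at 26.1 and 21.2 in GEF-H1-/- BMDCs. *Tyms*, which makes dTMP, changed by -0.12 and -0.04. The 5 genes had medians of -0.50 in WT and -0.16 in GEF-H1-/- BMDCs.

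The G1/S regulators summed to 61.0% of control in treated WT BMDCs and to 79.0% in GEF-H1-/- BMDCs, the lowest shares of the 8 role groups in each genotype. *Ccnd1* (cyclin D1), whose locus overlaps *LTO1* on the opposite strand, was at 19.8 FPKM (15.5 to 24.1) in control WT and 6.10 (4.87 to 7.34) in treated WT BMDCs, or 30.9% of control. In GEF-H1-/- BMDCs it was at 14.1 (11.4 to 16.8) and 13.3 (10.8 to 15.9) FPKM, or 94.2% of control. Treated WT BMDCs lay below the other 3 groups, and control GEF-H1-/- BMDCs lay at 71.5% of control WT BMDCs with overlapping intervals. The log2 changes were -1.55 (-1.94 to -1.16) in WT and -0.08 (-0.44 to 0.28) in GEF-H1-/- BMDCs, and their difference was 1.47, with a lower bound of 0.93. *Ccnd3* (cyclin D3) was the most abundant of the group, at 144 (104 to 183) and 91.5 (63.5 to 111) FPKM in WT and at 129 (92.0 to 158) and 101 (71.0 to 128) in GEF-H1-/- BMDCs. It thus made up most of the group sum, which was 222 FPKM in control WT BMDCs. Its control and treated intervals overlapped in each genotype. The locus of *Ccnd3* overlaps *Bysl* and ends 11801 bases past the annotated gene.

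*Ccne1* (cyclin E1), which drives entry into S phase with CDK2, had a different pattern from *Ccnd1*. It was at 27.6 FPKM (22.0 to 33.0) and 14.6 (11.6 to 17.6) in WT and at 22.2 (17.7 to 26.6) and 14.4 (11.5 to 17.4) in GEF-H1-/- BMDCs, so that the treated groups reached nearly the same level and the intervals lay apart in both genotypes. The difference between its changes, 0.28 (-0.27 to 0.84), had an interval that included 0. *E2f1*, an activating E2F, was at 11.9 and 7.51 FPKM in WT, with intervals barely apart, and at 11.0 and 9.02 in GEF-H1-/- BMDCs. *E2f2*, another activating E2F, changed by -0.14 and -0.11. *Ccne2* (cyclin E2), whose locus overlaps *Ints8*, was at 4.36 and 2.57 FPKM in WT and at 4.03 and 3.28 in GEF-H1-/- BMDCs, with wide overlapping intervals.

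**Figure D3:**
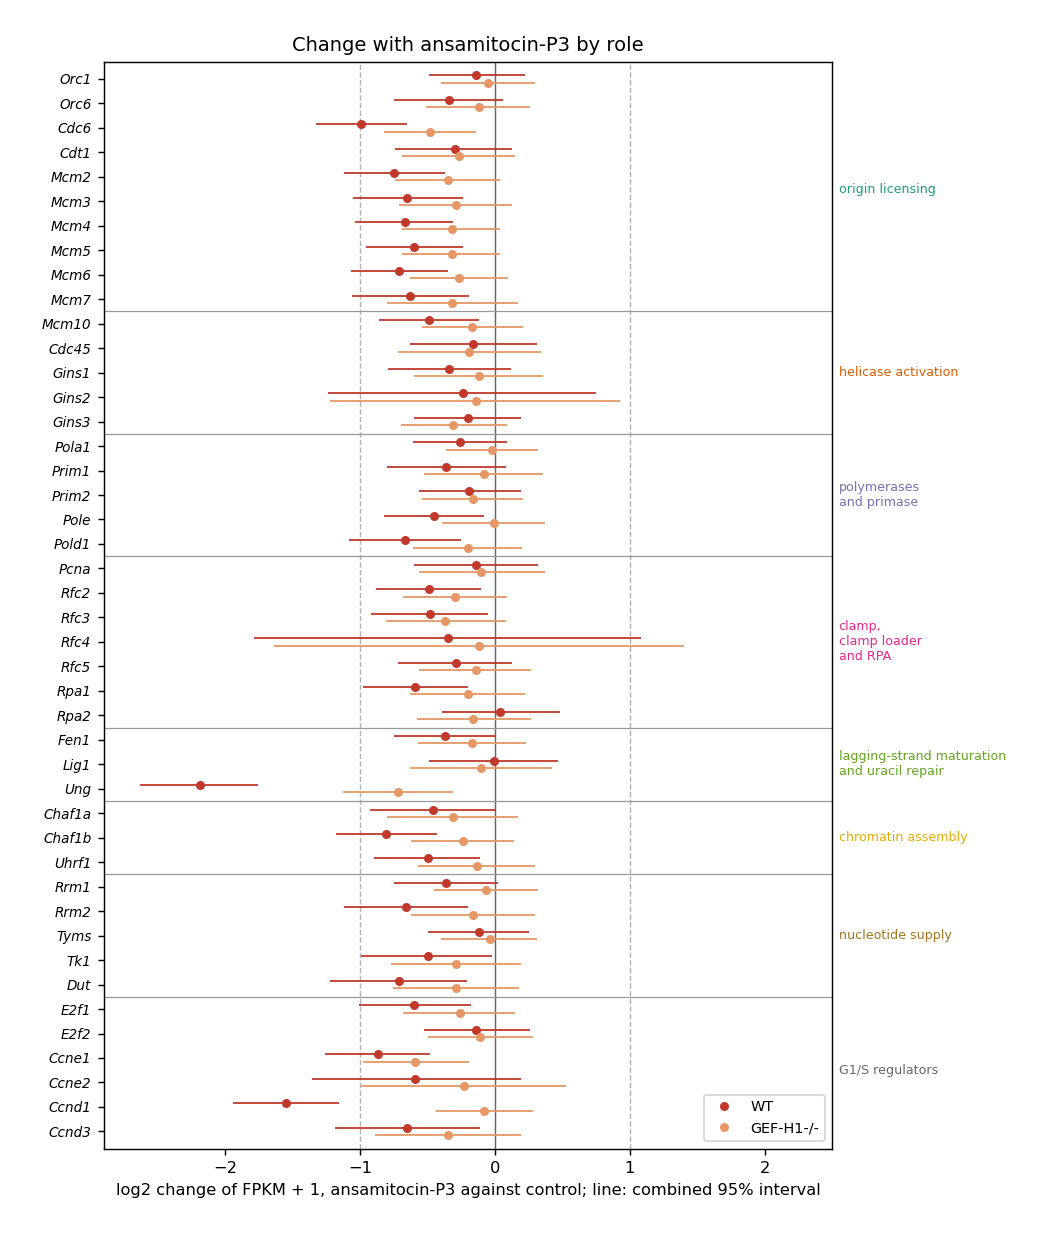
Log2 change of FPKM + 1 with ansamitocin-P3 for each gene in WT (dark red) and GEF-H1-/- BMDCs (orange), ordered by role, with lines for the interval combined from the group intervals and dashed lines at the threshold of 1. WT points lie from -2.19 to 0.04 and GEF-H1-/- points from -0.72 to -0.01, and the WT point is the lower one for 40 of the 44 genes.

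In control cells the genotypes were close. Of the 44 genes, 32 were lower in GEF-H1-/- than in WT BMDCs (background 52.1%), with a median of -0.10 and a range of -0.46 to 0.19, and the summed level was 94.3% of that in WT. No gene passed 1 in either direction (background 1.88%), and no intervals lay apart (background 4.74%). The interval of the difference lay below 0 for 1 of the 44 genes, no more than the background share (4.62%). This gene was *Ccnd1*, at -0.46 (-0.85 to -0.06), with overlapping group intervals. By arithmetic, this control difference enters the estimate of the genotype difference in its drug change. The G1/S regulators and the polymerases were lower for each of their 6 and 5 genes, with medians of -0.23 and -0.13, while the licensing genes had a median of -0.02. Nucleotide supply had a median of -0.19 and helicase activation one of -0.10, each with 4 of 5 genes lower. The 3 chromatin assembly genes were all lower, with a median of -0.06. After treatment 31 of the 44 genes were higher in GEF-H1-/- BMDCs (background 46.9%), with a median of 0.18 beside -0.03 over all genes. Intervals lay apart for 3 genes, *Cdc6*, *Ung* and *Ccnd1*, which is about the background share for higher with intervals apart (7.02%).

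The change in GEF-H1-/- BMDCs minus that in WT BMDCs was above 0 for 40 of the 44 genes (background 48.4%), with a median of 0.27 beside -0.01 over all genes. This was not particular to the 44 genes. Of 24 mitotic genes described below, 21 were above 0, with a median of 0.27. Of 41 other replication genes, 33 were above 0, with a median of 0.23. Over all genes, 916 were 1.5-fold or more lower after the drug in WT and 137 in GEF-H1-/- BMDCs. It was over 1 for *Ung* and *Ccnd1* (background 0.535%). For 4 genes the interval of the difference lay above 0, namely *Cdc6*, *Ung*, *Chaf1b* and *Ccnd1*, and for the other 40 it included 0 (background for an interval above 0, 3.52%). The median half-width was 0.58, so a difference of the size of the median could not be resolved for a single gene. Without *Ung* and *Ccnd1* the median was 0.26, with 38 of 42 genes above 0. The exceptions were *Rpa2*, *Gins3*, *Lig1* and *Cdc45*, with differences of -0.20, -0.10, -0.10 and -0.03, each with an interval that included 0.

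The sums of FPKM over all genes were 609360 in control and 739523 in treated WT BMDCs, and 599331 and 617423 in GEF-H1-/- BMDCs. Scaling the groups to a common sum, chosen after these sums were seen, moved the median of all genes to -0.24 in WT and -0.05 in GEF-H1-/- BMDCs and that of the 44 genes to -0.73 and -0.24. Between the treated groups it put 42 of the 44 genes higher in GEF-H1-/- BMDCs, with a median of 0.40 beside 0.20 over all genes. The median drug change of the 44 genes was below that of all genes in both genotypes under either scaling.

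**Figure D4:**
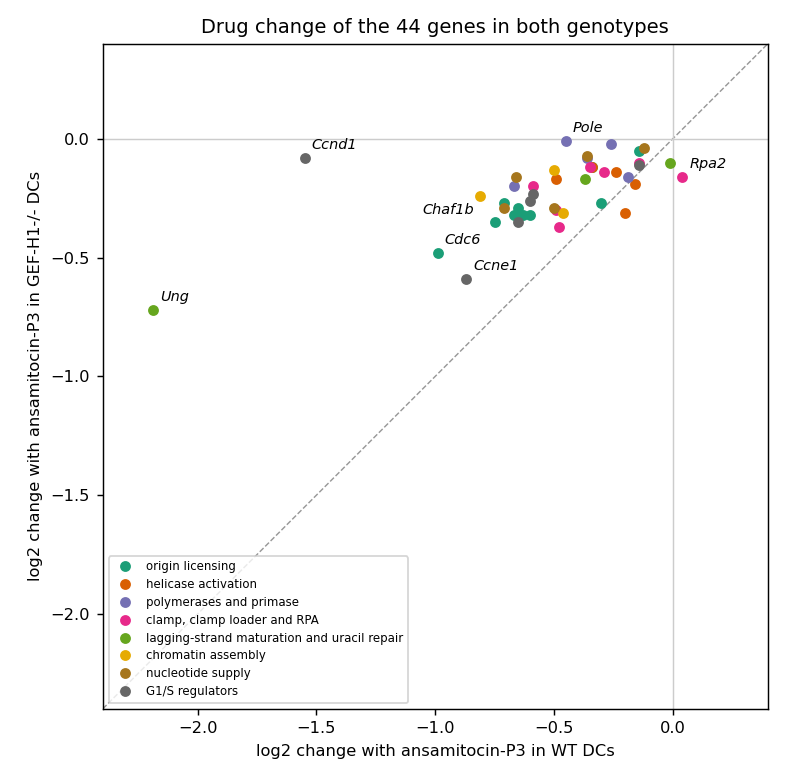
Log2 change with ansamitocin-P3 in WT (x axis) against GEF-H1-/- BMDCs (y axis), 1 point per gene, coloured by role, with a dashed line where both are equal. Of the 44 points, 40 lie above the line. *Ung* and *Ccnd1* have the lowest WT changes, -2.19 and -1.55, and differ in GEF-H1-/- BMDCs, where they stand at -0.72 and -0.08.

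Across the 44 genes the changes in the genotypes were related, with Pearson's r of 0.65 and Spearman's rho of 0.62, and r was 0.69 over the 42 genes without *Ung* and *Ccnd1*. These points are genes of the same 4 pooled values and are not independent, so this is a description. The change in WT BMDCs had little relation to the mean level (rho -0.17). Genes with an E2F word in the promoter window had a median change of -0.49 in WT (14 genes) and those without one of -0.47 (22 genes). In GEF-H1-/- BMDCs the medians were -0.27 and -0.18. The changes in WT BMDCs overlapped, from -0.99 to -0.01 with a word and from -2.19 to 0.04 without.

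A list of 41 other replication genes, which includes further polymerase and origin genes, had a smaller median change of the same sign. In WT BMDCs 30 were lower and 11 higher, with a median of -0.32, and in GEF-H1-/- BMDCs 32 were lower, with a median of -0.14. A log2 change of -1 was passed in WT BMDCs by 1 gene, *Dna2*, a nuclease and helicase of lagging-strand maturation, at 23.5 FPKM (19.2 to 27.9) and 7.10 (5.73 to 8.47) in WT and at 15.6 (12.7 to 18.4) and 11.3 (9.15 to 13.4) in GEF-H1-/- BMDCs, with log2 changes of -1.60 and -0.43. Its control groups differed as well, with intervals apart. *Wdhd1*, which couples polymerase α to the helicase, changed by -0.88 and -0.30. An E2F word was found for 10 of the 33 genes of this list with a promoter (30.3%).

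A list of 24 mitotic genes was lower by less than the replication genes in WT BMDCs, with a median of -0.23 and 20 genes lower, and was not lower in GEF-H1-/- BMDCs, where the median was 0.05 and 16 were higher. The summed level was 867 and 782 FPKM in WT and 791 and 812 in GEF-H1-/- BMDCs. The largest changes in WT BMDCs were those of *Kif23* (-0.56), *Top2a* (-0.50) and *Aurkb* (-0.46), against -0.32, -0.10 and -0.23 in GEF-H1-/- BMDCs. An E2F word was found for 1 of 21 of these genes (4.76%).

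**Figure D5:**
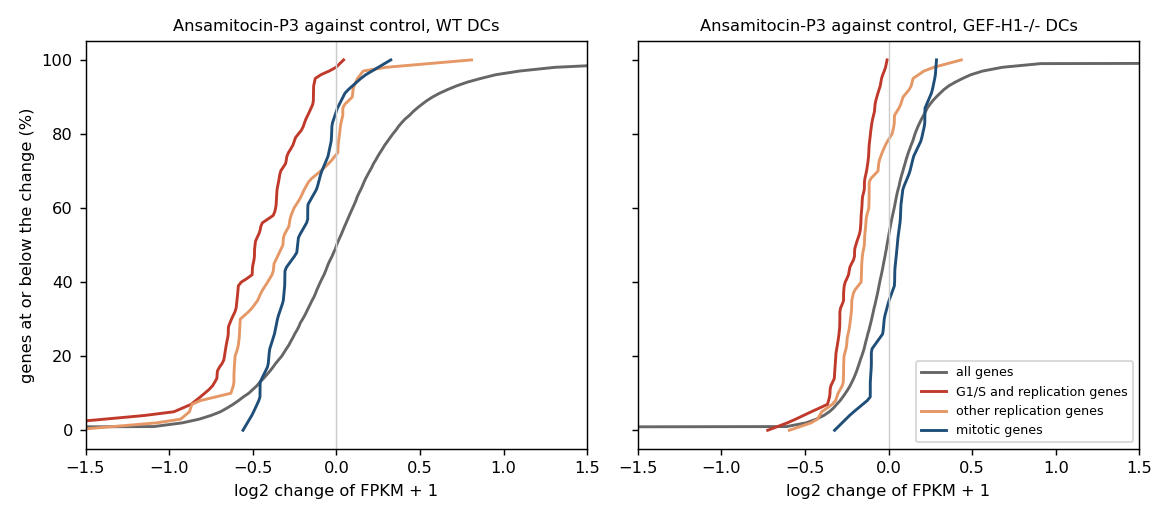
Cumulative share of genes (%) at or below a log2 change of FPKM + 1 with ansamitocin-P3, in WT (left) and GEF-H1-/- BMDCs (right), for all genes, the 44 genes, the other replication genes and the mitotic genes. The curve of the 44 genes lies left of that of all genes in both panels, with medians of -0.49 and -0.20 against 0.00 and -0.01.

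Summed markers of other cells also differed between the groups. The 7 progenitor markers summed to 129 FPKM in control and 112 in treated WT BMDCs and to 224 and 203 in GEF-H1-/- BMDCs, with a median change of -0.10 with the drug in each genotype and a median of 0.53 between the control groups. Of these, 6 were higher and 1 lower in control GEF-H1-/- BMDCs, with intervals apart for 2 of the higher and for the lower one. The intervals of *Elane* and *Prtn3* began at 0 in every group, so their share of the sums is poorly known. The 7 macrophage markers summed to 230 and 175 FPKM in WT and to 299 and 269 in GEF-H1-/- BMDCs. Their median difference between the controls was only 0.10, with 6 higher and 1 lower in GEF-H1-/- BMDCs and intervals apart for 2 of the higher. The neutrophil markers summed to 32393 and 38267 FPKM in WT and to 21759 and 22179 in GEF-H1-/- BMDCs. Most of the sum in control WT BMDCs came from *S100a8* (19401 FPKM) and *S100a9* (10678 FPKM). The value of *S100a8* lay above its own interval in every group, and *S100a9* differed by only -0.09 between the controls. In control GEF-H1-/- BMDCs 5 neutrophil markers were lower and 1 higher, with intervals apart for 4 and 1. No marker was listed at 0 in any group. The part of cell composition in the levels of the 44 genes was not tested.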

How the data were processed

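RNA of 8 BMDC libraries, 2 for each of 4 groups, was sequenced by the authors as paired ends from stranded poly(A) libraries. The deposited values are FPKM that the authors computed with Cuffdiff (version 1.05 in their text) as 1 pooled value per gene and group, with a 95% interval and a status. Per the submitters' processing notes the build is mm10, and loci are given here with 1-based starts. The aligner, the annotation and the strand setting behind this table are not given in the sources used here. The table had 0 unused columns of values, and the depth reached is unknown, since the methods give only a target and FPKM keeps no counts.

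Genes with a status other than OK were left out (106 with low data, 1 with too much data), as were genes under 1 FPKM in every group, which left 11397. Changes were log2 ratios of FPKM + 1, a gene was counted as past the threshold over 1 or under -1, and intervals of changes were combined in quadrature, treating groups as independent. Values were computed with Python 3.11.15, numpy 2.4.6 and pandas 2.3.3 and checked on simulated data, and figures were drawn with matplotlib 3.10.9. The members and lists were chosen with earlier results of these data known. Arhgef2 was named first, then all 44 genes, with intervals for those past the threshold and for the 3 most abundant of each role, and at most 3 genes of each other list, taken by their change in WT BMDCs among those at 5 FPKM or more. Other genes given with values were named after these were seen. Marker lists are given as sums and counts, and of their genes only *Myb*, *S100a8*, *S100a9*, *Elane* and *Prtn3* are named. A gene that this rule would name is not reported here. Loci were compared with GENCODE M21, where 15 of the 44 genes overlap another coding gene, 14 of them on the opposite strand. Promoters came from RefSeq, and 36 of 43 ended in letters found in a GENCODE transcript of the gene, while 0 did so in the reverse complement.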

Additional observations from a re-analysis of the deposited data

Results flagged for a closer look

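The change with ansamitocin-P3 differed between the genotypes beyond the interval combined from the Cuffdiff intervals for 4 of the 44 genes, all with the higher value in GEF-H1-/- BMDCs, beside 401 of all 11397 genes (3.52%) with an interval above 0 and 544 with one below 0. The change in GEF-H1-/- BMDCs minus that in WT BMDCs, on the log2 scale, was 1.47 for *Ung*, 1.47 for *Ccnd1*, 0.57 for *Chaf1b* and 0.51 for *Cdc6*. The lower bounds for *Chaf1b* and *Cdc6* were both 0.03, so these intervals excluded 0 only narrowly. *Rpa2* had changes of opposite sign in the genotypes, with a difference of -0.20 whose interval included 0. None of these differences was tested against the spread between libraries, which the pooled values do not hold.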

How the results depend on the processing

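No paired analysis was possible because the table holds 1 pooled value per gene and group, and for the same reason no library could be left out and no count test or limma fit was run. With a threshold of 1.5-fold in place of 2-fold, 18 of the 44 genes passed in WT BMDCs (2017 of all genes) and 2 in GEF-H1-/- BMDCs (454 of all genes). With a pseudocount of 5 FPKM only 1 gene, *Ccnd1*, kept a difference between the genotypes over 1. Scaling to a common summed FPKM, added after the data were seen, put 6 genes past the threshold in WT BMDCs (665 of all genes). With a pseudocount of 0.1 FPKM the count in WT BMDCs was 3, by the addition of *Cdc6*, and the counts over all genes were 956 in WT and 212 in GEF-H1-/- BMDCs. With 5 FPKM they were 318 and 77, against 563 and 123 with 1 FPKM. Between the control groups they were 372 and 101, against 214, and for the difference in drug change 387 and 123, against 216. At the 1.5-fold threshold the last 2 counts were 600 and 935. With no filter, a mean of 5 FPKM, the median ratio or intervals apart required, each count run for the 44 genes was as in the report, except that under the mean of 5 FPKM 14 in place of 15 genes had intervals apart in WT BMDCs, and 2 in place of 3 between the treated groups. The median of the 44 genes was -0.34 to -0.73 in WT, -0.15 to -0.24 in GEF-H1-/- BMDCs, -0.07 to -0.11 between controls and 0.20 to 0.50 for the difference, over all settings run. Of 528 values of single genes under 3 settings, 523 stayed within their interval and 5 did not. These were *Cdc6* in WT BMDCs (-0.52 with 5 FPKM) and *Ung* in WT BMDCs (-2.96 with 0.1 and -1.10 with 5 FPKM) and in the difference (2.14 and 0.63). Depth is unknown, and genes at low FPKM have the widest intervals relative to their level.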

Other observations

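Among 25 other regulators of the cell cycle, 24 passed the filter, with medians of -0.14 in WT and -0.05 in GEF-H1-/- BMDCs. *Cdkn1a* (p21), an inhibitor of cyclin-dependent kinases, was at 307 FPKM (248 to 367) in control WT and 589 (480 to 699) in treated WT BMDCs, with intervals apart, and at 328 (268 to 387) and 352 (288 to 415) in GEF-H1-/- BMDCs. *Cdkn2b* (p15), an inhibitor of the cyclin D kinases, was at 18.3 and 35.1 FPKM in WT, again with intervals apart, and at 20.3 and 31.0 in GEF-H1-/- BMDCs. *Rbl2*, a retinoblastoma-family protein, was lower, with log2 changes of -0.64 and -0.43. *Ccnd2* (cyclin D2), chosen after its values were seen, stayed at 64.8 and 66.7 FPKM in WT and at 34.9 and 34.1 in GEF-H1-/- BMDCs. Its control groups lay apart, while its control and treated intervals overlapped in each genotype.

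*Myb*, a factor of haematopoietic progenitors, had the largest change in WT BMDCs among the progenitor markers at 5 FPKM or more, with 9.10 and 5.22 FPKM in WT and 9.20 and 6.99 in GEF-H1-/- BMDCs. Basophil and mast cell markers (5) summed to 190 and 196 FPKM in WT and to 347 and 332 in GEF-H1-/- BMDCs, and lymphoid markers (6) to 13.9 and 12.1 in WT and 9.38 and 8.22 in GEF-H1-/- BMDCs. Of 5 erythroid markers, 4 were under 1 FPKM in all groups, and the 5 summed to 0.474 and 0.846 FPKM in WT and to 2.47 and 2.39 in GEF-H1-/- BMDCs.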
